A study of Mus musculus with 2 samples.

Results

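The genes described here are 9 complement components, receptors and regulators: C1qa, C1qb, C1qc, C3, C4b, Cfp, C3ar1, C5ar1 and Serping1. They were taken by name from the 32285 genes of the deposited count matrices, and all 9 were found. They were read in 2 single-cell libraries of ankle joint synovium, the tissue that lines the joint, from C57BL/6 (B6) bone marrow chimeras: CD45.2 hosts that carried CD45.1 donor marrow and whose ankles were shielded from the irradiation. The steady-state library was made from untreated animals. The day 7 library was made from animals that had received, behind the eye and 7 days earlier, 200 µL of liposomes carrying clodronate. Phagocytes that engulf such liposomes die. Both libraries were sorted as live CD45+CD11b+ cells with the gate Ly6G-SiglecF-CD64-MHCII-Ly6C-CD177-, and the number of animals behind each library was not given in the labels. Because the ankle was shielded, host cells of the joint were kept, so the CD45.2 antibody marks host cells and the CD45.1 antibody marks cells of the donor marrow.

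Complement is a cascade of proteins that tags particles for uptake and recruits leukocytes. C1q, a protein of A, B and C chains, starts the classical pathway and also binds dying cells, and macrophages are its main source in tissues. C3 is the component on which all pathways meet, C4 acts between C1 and C3, properdin (Cfp) stabilises the alternative pathway convertase, Serping1 encodes the C1 inhibitor, and C3ar1 and C5ar1 encode the receptors for the small fragments C3a and C5a.

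The 3 C1q genes are neighbours on mouse chromosome 4 (build GRCm38.p6): C1qb at chr4:136880126-136886200, C1qc at chr4:136889801-136892936 and C1qa at chr4:136895916-136898844, all protein coding. C3 lies at chr17:57203967-57228136 and C4b at chr17:34728139-34743902. Below are the 250 bases before the RefSeq start of 2 C1q genes, which were high in macrophage-like cells, and of C3, which was close to absent there and present in monocyte-like and fibroblast-like cells. Each is on the minus strand, written 5′ to 3′, with matches to the motifs searched in capitals (both strands: GAGGAA, the core bound by Spi1, the myeloid factor PU.1; TTGCNNAA, bound by C/EBP factors; TGCTGAC, bound by Maf factors).
C1qb, chr4:136886201-136886450: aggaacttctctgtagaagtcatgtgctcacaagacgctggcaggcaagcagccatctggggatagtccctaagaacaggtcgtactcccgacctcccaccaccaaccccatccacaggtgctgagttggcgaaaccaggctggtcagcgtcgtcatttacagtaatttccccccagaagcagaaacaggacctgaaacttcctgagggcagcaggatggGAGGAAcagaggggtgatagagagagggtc
C1qc, chr4:136892915-136893164: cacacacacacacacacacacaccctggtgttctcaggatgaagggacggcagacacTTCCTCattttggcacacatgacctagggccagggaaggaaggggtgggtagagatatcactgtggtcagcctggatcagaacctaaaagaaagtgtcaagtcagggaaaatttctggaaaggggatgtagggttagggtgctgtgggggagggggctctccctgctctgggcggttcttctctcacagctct
C3, chr17:57228137-57228386: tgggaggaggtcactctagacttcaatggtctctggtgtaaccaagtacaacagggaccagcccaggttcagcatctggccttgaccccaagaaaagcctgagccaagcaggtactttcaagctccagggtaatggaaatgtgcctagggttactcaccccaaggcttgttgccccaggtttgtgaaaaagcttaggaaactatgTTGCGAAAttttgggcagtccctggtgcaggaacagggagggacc
The C1qb window held GAGGAA, beginning 30 bases before the start, and the C1qc window held its reverse complement TTCCTC, beginning 193 bases before it. The C3 window held TTGCGAAA, beginning 45 bases before the start. These are matches of letters and no binding was measured: GAGGAA was in 23.3% of the 32851 windows of this length, TTGCNNAA in 9.56% and TGCTGAC in 3.81%. The windows of Cfp, C3ar1 and C5ar1 held none of the 3.

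After filtering, the steady-state library had 1631 cells (median 9559 RNA molecules, counted as UMIs, per cell) and the day 7 library 1200 cells (median 8309), and no cell barcode occurred in both. Clusters were made without any complement gene and named from marker lists. Macrophage-like cells (5 clusters) numbered 870 at steady state and 167 at day 7, Ly6C-low monocyte-like cells 132 and 171, classical monocyte-like cells 165 and 452, fibroblast-like cells 69 and 16, and neutrophil-like cells 1 and 32. Monocyte-like, fibroblast-like and neutrophil-like cells were present although the gate was drawn against Ly6C and Ly6G and for CD45. The gate was also drawn against MHCII, while MHC class II genes were among those leading clusters 0 and 3. The fibroblast-like cells had Ptprc, the gene of CD45, at 10.6 CPM (UMIs per 1000000 RNA UMIs of the cells concerned) at steady state against 254.5 CPM in macrophage-like cells. Of the clusters without a name, cluster 0 (149 and 101 cells) was led by MHC class II genes and Cd209a, cluster 3 (181 and 14) by Mucl1, Ccl17, Mgl2 and class II genes, cluster 12 (16 and 103) by cell cycle genes and cluster 13 (5 and 112) by Elane and Mpo. Cluster 4 (43 and 24 cells, median 1151 and 1116 UMIs) was led by Acp5, Ctsk and Mcpt4. The classical monocyte-like class joins cluster 9 (147 and 236 cells) and cluster 11 (18 and 216 cells), which differ in their share between libraries. A class of 8 mast cell or basophil-like cells was seen at day 7. With 1 library per group no test between groups was possible. Intervals in parentheses are 95% exact Poisson limits for CPM values and their ratios and exact binomial (Clopper-Pearson) limits for shares, and they cover counting error only. Where no cell had a UMI, the limit given is 3 counts over the number of cells; it bounds cells with a UMI and not cells that express the gene. The assay counts transcript ends, not per length, so levels are compared between cells for 1 gene and not between genes.

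C1q transcripts were held almost entirely by macrophage-like cells. At steady state the macrophage-like cells held 95.6% of all C1q UMIs while making up 53.3% of the cells. At day 7 they again held 95.6%, while making up 13.9% of the cells. The 3 chains together stood at 13679 CPM (13604 to 13754) in steady-state macrophage-like cells. The same sum was 110.0 CPM (90.3 to 132.8) in Ly6C-low cells and 225.5 CPM (201.7 to 251.4) in classical monocyte-like cells. The log2 ratio of macrophage-like over Ly6C-low cells was 6.96 (6.69 to 7.24). Of the 8 members at 20 CPM or more in macrophage-like or classical monocyte-like cells, 6 (the C1q chains, C4b, C3ar1 and C5ar1) were at least 2-fold higher in macrophage-like cells, against 22.6% of the 6434 genes compared, and C3 and Cfp were at least 2-fold lower, against 10.6%.

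**Figure D1:**
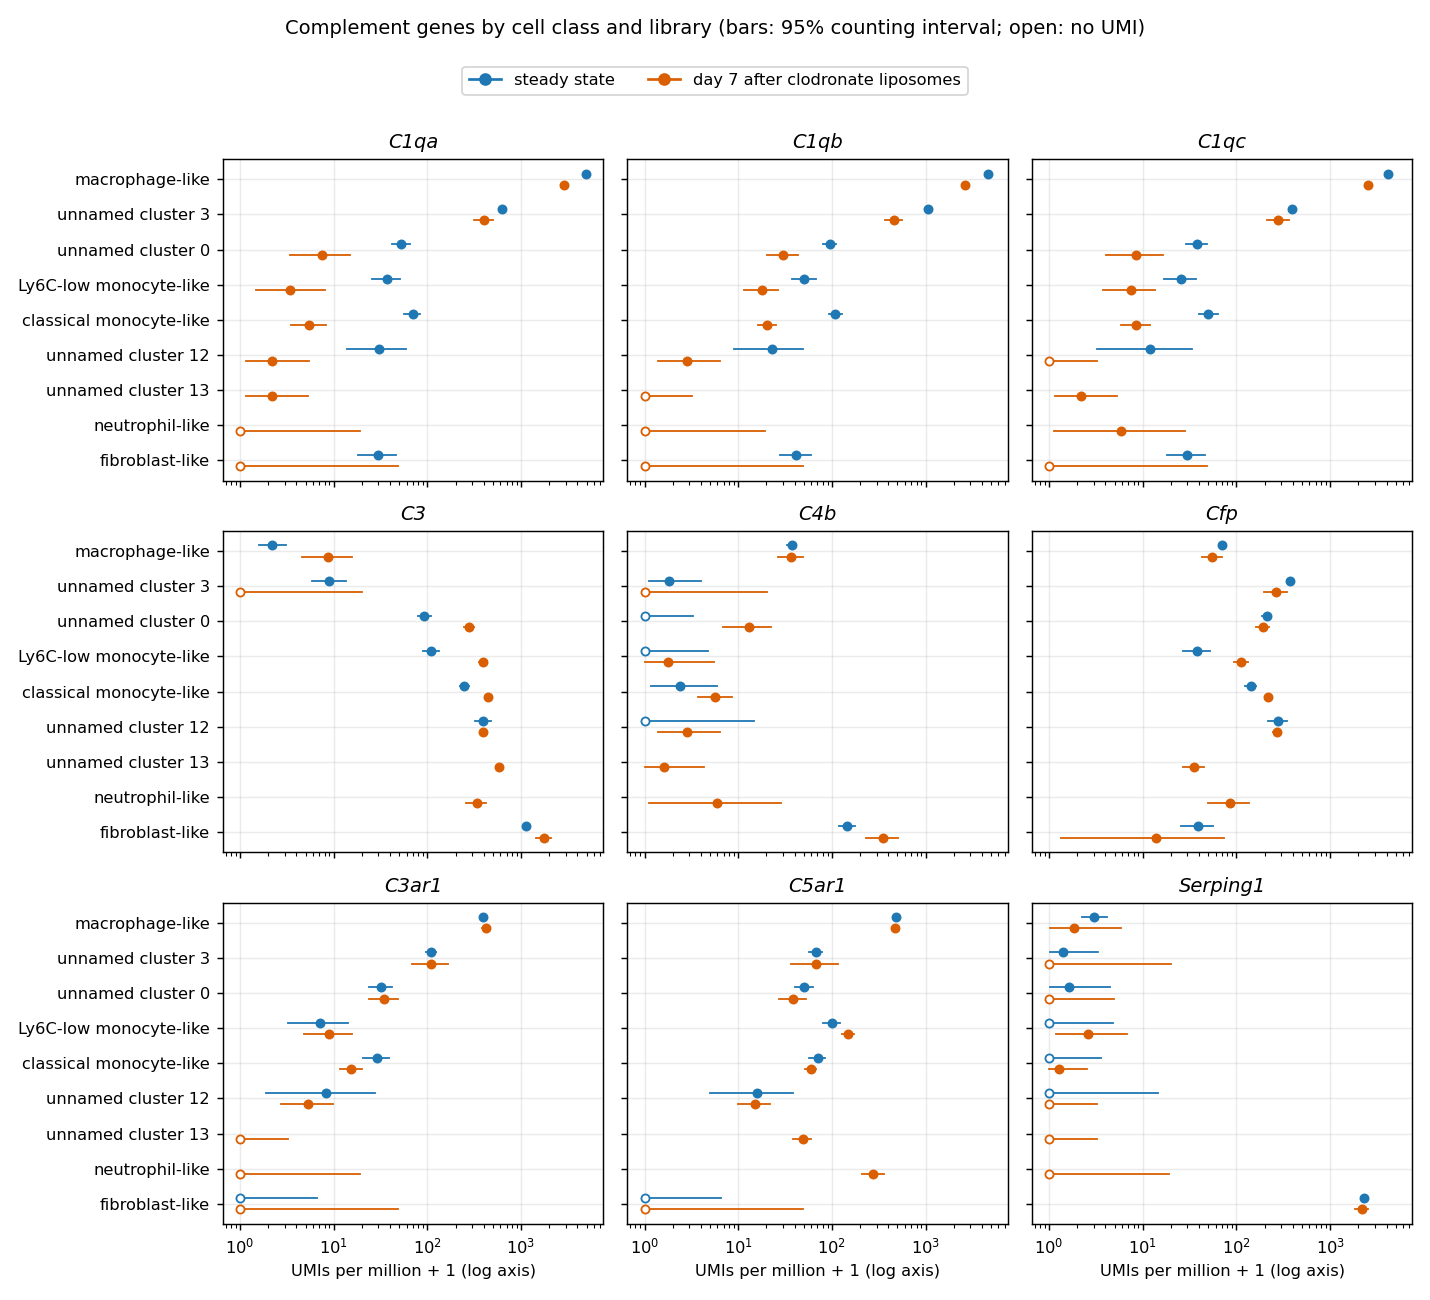
Level of each of the 9 genes (UMIs per 1000000 plus 1, log axis) by cell class in the steady-state and day 7 libraries; bars are exact Poisson intervals and open points have no UMI. Groups of under 14 cells are not drawn. Among the classes drawn, the C1q chains, C3ar1 and C5ar1 are highest in macrophage-like cells, C3 and Serping1 in fibroblast-like cells, and C3 is present in the monocyte-like classes but near 0 in macrophage-like cells.

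The chains kept close proportions. C1qa was at 4901 CPM, C1qb at 4659 CPM and C1qc at 4119 CPM in steady-state macrophage-like cells, and at 2876, 2665 and 2513 CPM at day 7. Nearly every macrophage-like cell carried C1q: 99.5% had a UMI of any chain at steady state (98.8 to 99.9%) and 97.0% at day 7 (93.2 to 99.0%). The per-cell level was broad, with a steady-state 5th percentile of 2336 CPM, a median of 13360 CPM and a 95th percentile of 24305 CPM. At day 7 these percentiles were 1097, 8092 and 14072 CPM, so that the day 7 median lay below the 25th percentile of steady state (8704 CPM).

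Among macrophage-like clusters, C1q followed the subsets. Cluster 1, led by Vsig4, S100b and Sparc, had the highest level at 17839 CPM (17684 to 17995). Cluster 6, led by Slc7a2, Arg1 and Vsig4, followed at 14524 CPM. Clusters 2 (Pf4, Fxyd2, Cd163), 7 (Pf4, Aqp1, Fxyd2) and 10 (Ccl8, Cd209f, Cd209d) lay close together at 10401, 10236 and 10662 CPM, and the intervals of clusters 2 and 7 overlapped. The Vsig4-led clusters 1 and 6 over clusters 2 and 7 gave a log2 ratio of 0.67 (0.65 to 0.68) at steady state and 1.01 (0.95 to 1.08) at day 7. Vsig4 itself encodes a receptor for C3 fragments. It helped to name these clusters and is not counted among the results.

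**Figure D2:**
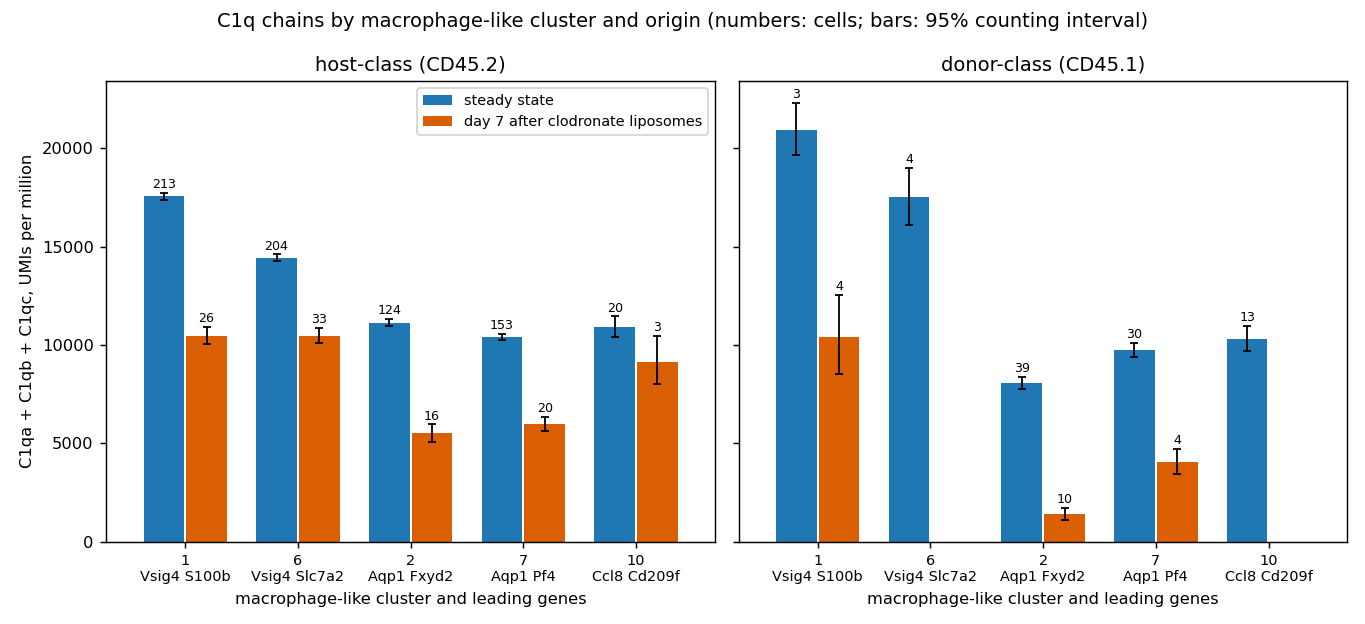
Sum of the 3 C1q chains (CPM, bars, with exact Poisson intervals) in each macrophage-like cluster, for host cells (left) and donor cells (right) in both libraries; the number on each bar is its count of cells, and groups of under 3 cells are not drawn. Host cells of cluster 2 are at 11131 and 5504 CPM, and donor cells of cluster 2 at 8044 and 1397.5 CPM, and host cells are lower at day 7 in each of the 5 clusters.

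Macrophage-like cells of the day 7 library had a lower C1q level than those of steady state. The sum of the chains was 8055 CPM (7892 to 8219) at day 7, a log2 ratio of -0.76 (-0.79 to -0.73), while the median over all 6432 genes compared was 0.11. The ratio was -0.77 for C1qa, -0.81 for C1qb and -0.71 for C1qc. None of the 7 members that passed the level minimum differed 2-fold, and of all genes 1.1% were at least 2-fold higher and 0.933% at least 2-fold lower. The difference had the same direction in all 5 clusters, at -0.71 in cluster 1, -0.48 in cluster 6, -1.12 in cluster 2, -0.83 in cluster 7 and -0.32 in cluster 10 (39 and 6 cells). The day 7 macrophage-like cells were also shallower, with a median of 6705 UMIs against 9977.5, and carried more transcripts of the neutrophil marker list (166 CPM summed over 10 genes against 19.8). The part of either in the C1q difference was not tested. Taken over all cells of a library, C1q was lower at day 7 by far more, at 904 against 7778 CPM (log2 -3.10, -3.13 to -3.07), beside the lower share of macrophage-like cells. In that whole-library comparison 7 of 9 members were at least 2-fold lower, against 10.6% of genes, and C3 alone was at least 2-fold higher, against 6.5%.

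**Figure D3:**
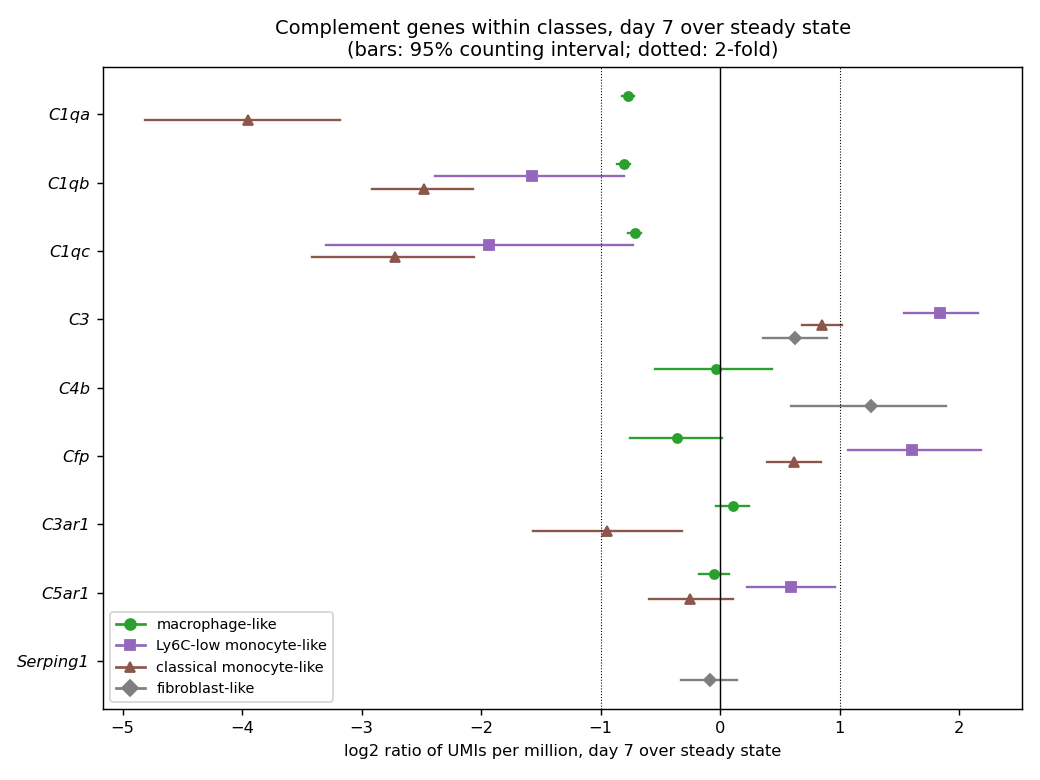
Log2 ratio of day 7 over steady state for each gene within each cell class, with exact Poisson intervals; the solid line marks no difference and dotted lines 2-fold, and ratios that rest on under 4 UMIs in either library or on levels under 20 CPM in both are not drawn. The C1q chains drawn are all lower, and C3 is higher in fibroblast-like cells and both monocyte-like classes.

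Low C1q counts were found in cells that should lack it. At steady state 47.8% of fibroblast-like cells had a C1q UMI (35.7 to 60.2%; median depth 10146 UMIs), as did 46.2% of Ly6C-low cells (37.5 to 55.1%; 6284.5 UMIs), 45.5% of classical monocyte-like cells (37.7 to 53.4%; 8608 UMIs) and 47.7% of cluster 0 (39.4 to 56.0%; 9637 UMIs). The fibroblast-like level was 98.3 CPM (75.8 to 125.3), overlapping that of the Ly6C-low cells. The monocyte-like shares did not exceed the fibroblast-like share beyond counting error, so no expression is read from them. In classical monocyte-like cells 2 cells held 55.2% of the C1q UMIs, and without cells of over 20 C1q UMIs the level was 105.7 CPM. At day 7 the monocyte-like levels were lower, as was C1q over the whole library: 25.6 CPM (17.5 to 36.1) in Ly6C-low and 31.2 CPM (25.7 to 37.5) in classical monocyte-like cells, with a UMI in 6.43% and 6.64% of cells. The shallow cluster 4 was not lower, at 303.1 CPM (247.9 to 366.9) in 43 cells and 316 CPM (176.8 to 521.1) in 24. In the 16 day 7 fibroblast-like cells (median depth 4669.5 UMIs) none had a C1q UMI, which allows a share of cells with a UMI of up to 18.8% (3 of 16), and in the 32 neutrophil-like cells a single C1qc UMI was counted. The lowest levels of well-filled classes at day 7 were 3.0 CPM (0.99 to 7.1) in cluster 12 and 2.4 CPM (0.66 to 6.2) in cluster 13, whose median depths were 14714 and 17014.5 UMIs. The monocyte-like levels of day 7 lay above these, with intervals that did not overlap, while the wide intervals of the few neutrophil-like and fibroblast-like cells overlapped theirs, and without cells of over 20 C1q UMIs the classical level was 20.5 CPM. The mixture of chains differed between classes. C1qb made up 34.1% of C1q UMIs in steady-state macrophage-like cells (33.8 to 34.3%) and 33.1% at day 7. It made up 45.4% in Ly6C-low (35.8 to 55.2%) and 47.9% in classical monocyte-like cells (42.3 to 53.4%), and 41.5% in fibroblast-like cells (29.4 to 54.4%). At day 7 it was 65.6% and 61.9% in the 2 monocyte-like classes. The monocyte-like mixture differed from that of macrophage-like cells beyond counting error. The wide fibroblast-like interval included the steady-state macrophage-like share and also both steady-state monocyte-like shares. It therefore cannot tell the fibroblast-like mixture from either, and no separate source of monocyte-like C1q UMIs is read from the mixture.

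Cluster 3 stood between these classes. Its C1q sum was 2069 CPM (2011 to 2127) at steady state and 1136 CPM (991 to 1296) in its 14 cells at day 7. A UMI was present in 83.4% of its steady-state cells (77.2 to 88.5%). The counts were uneven: 62 of the 181 cells had over 20 C1q UMIs and held 89.2% of the total, and without them the level was 367.3 CPM. C1qb made up 51.1% of its C1q UMIs (49.7 to 52.5%), above the share in each macrophage-like cluster at steady state (33.1 to 35.6%). In its 14 day 7 cells the C1qb share was 40.5% (33.9 to 47.3%), which overlapped the macrophage-like share at day 7 (32.1 to 34.1%). Of these cells 4 held 91.4% of the C1q UMIs. At steady state Pf4, the chemokine gene that led clusters 2 and 7, stood at 77.0 UMIs per 100 C1q UMIs in cluster 3 and at 55.4 and 52.8 in those 2 clusters.

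**Figure D4:**
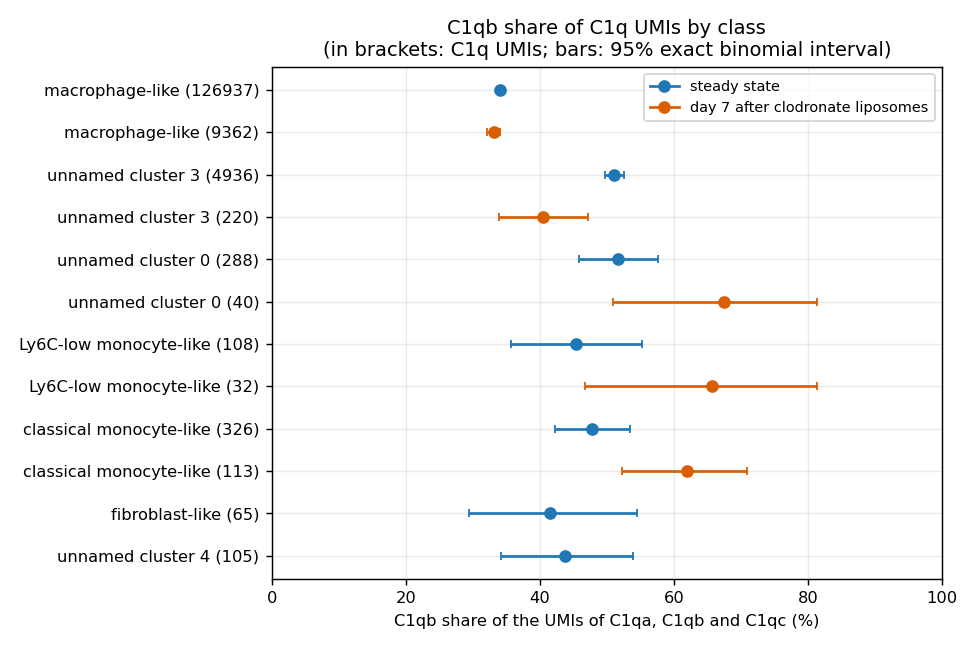
Share of C1q UMIs that came from C1qb (percent) by cell class and library, with exact binomial intervals. Macrophage-like cells sit at 34.1% and 33.1%, cluster 3 at 51.1% at steady state, and the monocyte-like classes at 45.4% to 65.6%; numbers in brackets are the C1q UMIs, clusters 0 and 4 are shown too, and groups with under 20 C1q UMIs are not drawn.

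Host and donor macrophage-like cells both expressed C1q. At steady state 714 macrophage-like cells were called host and 89 donor from the CD45 antibodies, and 67 had no call. Cells called host had 13931 CPM of C1q and cells called donor 10043 CPM, a log2 ratio of 0.47 (0.44 to 0.50), and their median depths were 10305 and 8428 UMIs. The chains were unequal in this comparison: the ratio was 0.75 (0.69 to 0.81) for C1qc, 0.49 (0.43 to 0.54) for C1qa and 0.25 (0.20 to 0.30) for C1qb. Donor cells were mostly in clusters 2 and 7 (39 and 30 of 89). Within cluster 7 the sum differed by 0.09 (0.04 to 0.15), with C1qb higher in donor cells (-0.24, -0.33 to -0.15) and C1qc higher in host cells (0.58, 0.46 to 0.70). Within cluster 2 the sum differed by 0.47 (0.41 to 0.53), and within cluster 10 (20 host and 13 donor cells) by 0.08 (-0.03 to 0.20). At day 7 the 98 cells called host had 8737 CPM and the 21 called donor 3453 CPM (log2 1.34, 1.20 to 1.49). The cells called donor had a median of 2955 UMIs against 8042, and a median antibody total of 309 against 927. Calls from few antibody counts are uncertain. Of the fibroblast-like cells, 37 of 69 at steady state and 15 of 16 at day 7 were called donor, at median CD45.1 counts of 1 and 3. The monocyte-like cells were nearly all called donor (129 of 132 Ly6C-low and 162 of 165 classical at steady state), so that no host level of C1q is given for them.

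C3 had close to the opposite pattern. Fibroblast-like cells had 1125 CPM (1046 to 1209) at steady state and held 48.9% of all C3 UMIs with 4.23% of the cells. Classical monocyte-like cells had 247.7 CPM (222.7 to 274.7), Ly6C-low cells 109.0 CPM (89.3 to 131.7) and cluster 0 92.1 CPM (77.8 to 108.3), and the last 2 intervals overlapped. In the 870 macrophage-like cells 11 C3 UMIs were counted, 1.2 CPM (0.59 to 2.1), and a UMI was seen in 1.26% of cells (0.633 to 2.25%). Fibroblast-like over macrophage-like cells gave a log2 ratio of 9.89 (9.04 to 10.90). Cluster 3 was also low at 8.0 CPM (4.8 to 12.4). Against the level in macrophage-like cells, the monocyte-like levels were far above background. Of the 9 members, C3, C4b and Serping1 were at least 2-fold higher in fibroblast-like than in macrophage-like cells, against 16.9% of genes, and the C1q chains, C3ar1 and C5ar1 at least 2-fold lower, against 23.3%.

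In the day 7 library C3 was higher in the monocyte-like and fibroblast-like classes. Ly6C-low cells had 390.3 CPM (356.4 to 426.5), a log2 ratio of 1.84 (1.54 to 2.16) over steady state, and the share of cells with a UMI was 74.3% against 43.9%. With every cell thinned to 2000 UMIs, which left out 8 and 15 shallower cells, these shares were 44.8% and 17.1%. Classical monocyte-like cells had 447.5 CPM (425.9 to 469.8), a ratio of 0.85 (0.69 to 1.02), which was 0.89 (0.71 to 1.08) within cluster 9 and 0.78 (0.25 to 1.36) within cluster 11. Cluster 0 had 275.2 CPM, a ratio of 1.58 (1.28 to 1.88), and fibroblast-like cells 1742 CPM (1460 to 2061), a ratio of 0.63 (0.36 to 0.90) that rests on 16 cells, of which 5 held 73.3% of the UMIs. The dividing cluster 12 had like levels in both libraries, 393.6 CPM (322.5 to 475.6) and 393.2 CPM (363.5 to 424.7). The 167 macrophage-like cells of day 7 had 9 C3 UMIs, 7.7 CPM (3.5 to 14.7), under the level minimum for a comparison. Cluster 13 had 580.1 CPM at day 7 and neutrophil-like cells 335.0 CPM. Over all cells C3 was at 89.0 CPM and 386.6 CPM (log2 2.12, 2.03 to 2.20). The main holders of C3 UMIs at day 7 were classical monocyte-like cells (38.7%), cluster 13 (23.0%) and cluster 12 (15.5%). Most classical monocyte-like cells were called donor. At day 7 the 420 classical cells called donor had 454.3 CPM and the 13 called host 274.0 CPM, a host level that rests on few cells. In Ly6C-low cells C3 and Cfp were at least 2-fold higher at day 7, against 4.51% of the 5636 genes compared, and the 3 C1q chains at least 2-fold lower, against 3.81%. In classical monocyte-like cells the C1q chains were the members past 2-fold, all lower, against 1.61% of genes, while no member compared was past 2-fold higher, against 2.8% of genes. The C1q counts in both monocyte-like classes are the low ones set beside the fibroblast-like level above. In fibroblast-like cells C4b was past 2-fold higher and Cfp, with a single UMI at day 7, lower, where 20.3% of genes were past 2-fold higher and 10.1% lower.

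Cfp, the gene of properdin, was spread over the myeloid classes rather than held by macrophages. At steady state it was at 368.8 CPM (344.9 to 394.0) in cluster 3, at 210.0 CPM (188.1 to 233.8) in cluster 0, at 140.4 CPM (121.8 to 161.2) in classical monocyte-like cells, at 69.4 CPM in macrophage-like cells and at 36.7 CPM (25.7 to 50.8) in Ly6C-low cells. The log2 ratio of Ly6C-low over macrophage-like cells was -0.92 (-1.45 to -0.44), and its interval included 0 at a clustering resolution of 1.5 (-0.37) and with a marker gate per cell (-0.30). Cluster 3 held 38.8% of Cfp UMIs at steady state, and the 16 cells of cluster 12 held 3.31% with 1.59% of all RNA UMIs. At day 7 the main holders of Cfp UMIs were classical monocyte-like cells (44.9%) and cluster 12 (25.7%), and cluster 3 held 2.94%. In steady-state fibroblast-like cells the 25 Cfp UMIs (37.8 CPM) all lay in 5.80% of the cells. Within macrophage-like cells the order differed from that of C1q. The Ccl8-led cluster 10 was highest at 396.1 CPM (330.2 to 471.3), clusters 2 and 7 had 106.0 and 103.2 CPM with overlapping intervals, and the Vsig4-led clusters 1 and 6 had 24.6 and 21.6 CPM. Clusters 1 and 6 over 2 and 7 gave a log2 ratio of -2.17 (-2.47 to -1.87) at steady state and -2.84 (-4.12 to -1.75) at day 7. Cfp was the 1 member at least 2-fold lower in this steady-state comparison, against 1.63% of genes, and none was at least 2-fold higher, against 2.49%.

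Cells called donor had more Cfp among macrophage-like cells, at 159.0 CPM against 59.9 CPM in host cells (log2 host over donor -1.41, -1.69 to -1.12). Within clusters the difference was smaller: -0.47 (-0.97 to 0.05) in cluster 2, -0.16 (-0.70 to 0.41) in cluster 7 and -0.40 (-0.98 to 0.18) in cluster 10, and these intervals included 0. In cluster 3 the cells called host (25) had 280.1 CPM and those called donor (151) 389.9 CPM (-0.48, -0.78 to -0.18). At day 7 Cfp was at 112.0 CPM (94.2 to 132.1) in Ly6C-low cells, a log2 ratio over steady state of 1.61 (1.07 to 2.18) that turned to -0.43 (-1.16 to 0.25) when cells were gated by markers one by one. In classical monocyte-like cells it was at 215.3 CPM, a ratio of 0.62 (0.39 to 0.85) that was 0.32 (-0.003 to 0.65) with doublet calls kept. In macrophage-like cells it was at 54.2 CPM, a ratio of -0.36 (-0.75 to 0.02). In cluster 10 it was at 396.1 CPM at steady state (127 UMIs) and 48.6 CPM at day 7 (2 UMIs in 6 cells), and cluster 6 had no Cfp UMI at day 7, which puts its log2 ratio at -1.23 or below.

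C4b is listed beside its near-identical copy C4a, and reads of the pair could be split between them. C4a had 7 UMIs in all, so C4b values are given with that limit. Fibroblast-like cells had 145.2 CPM (117.6 to 177.3) at steady state and 348.3 CPM (229.6 to 506.8) at day 7, a log2 ratio of 1.26 (0.59 to 1.89) from 96 and 27 UMIs. The highest level was in cluster 10, the Ccl8 and Cd209 macrophage-like cells, at 427.3 CPM (358.8 to 505.2) with a UMI in 64.1% of its 39 cells. Of the 436 steady-state C4b UMIs, macrophage-like cells held 336 (77.1%), of which 137 were in cluster 10 and 82 in the larger cluster 1, and fibroblast-like cells held 96 (22.0%). The remaining macrophage-like clusters lay between 9.5 and 32.7 CPM at steady state. In macrophage-like cells as a whole C4b was at 36.2 CPM at steady state and 35.3 CPM at day 7 (ratio -0.04, -0.54 to 0.43). Monocyte-like classes had 0 to 4.7 CPM. C4b was higher in macrophage-like cells called host than in those called donor, at 34.6 and 12.2 CPM (log2 1.5, 0.60 to 2.58), though the ratio was 0.80 (-0.11 to 1.88) at a mitochondrial limit of 5%. Within cluster 10 it was at 712.5 CPM in the 20 host cells and 93.7 CPM in the 13 donor cells (log2 2.93, 1.95 to 4.09), and in clusters 2 and 7 no donor cell had a UMI (39 and 30 cells). C4b was the 1 member at least 2-fold higher in host cells and Cfp the 1 at least 2-fold lower, against 3.53% and 2.23% of 6311 genes.

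Serping1 marked the fibroblast-like cells, at 2300 CPM (2186 to 2418) at steady state and 2167 CPM (1852 to 2521) at day 7 (log2 ratio -0.09, -0.32 to 0.15). They held 98.6% and 97.7% of its UMIs. Macrophage-like cells had 2.0 CPM (1.2 to 3.2) at steady state and a single UMI at day 7. Both monocyte-like classes had 0 Serping1 UMIs at steady state, in 132 and 165 cells, which allows shares of cells with a UMI of up to 2.27% and 1.82%. In macrophage-like cells the fibroblast marker list (11 genes) summed to 26.6 CPM at steady state and 6.88 CPM at day 7, against 53544 and 26679 CPM in fibroblast-like cells.

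The 2 anaphylatoxin receptors were high in macrophage-like cells and showed little difference between libraries there. C3ar1 was at 392.2 CPM (379.6 to 405.2) at steady state and 422.4 CPM (385.9 to 461.5) at day 7, a log2 ratio of 0.11 (-0.03 to 0.24). C5ar1 was at 488.0 CPM (473.9 to 502.5) and 471.5 CPM (432.8 to 512.7), a ratio of -0.05 (-0.18 to 0.08). These levels stood beside C1q, which was lower in the same cells. The 8 mast cell or basophil-like cells of day 7 had levels whose intervals overlapped these, at 357.9 CPM of C3ar1 (195.7 to 600.5, 14 UMIs) and 485.8 CPM of C5ar1 (292.5 to 758.6, 19 UMIs). C3ar1 was highest in cluster 1 at steady state (464.2 CPM) and lowest of the macrophage-like clusters in cluster 2 (270.3 CPM). C5ar1 was highest in cluster 6, at 680.0 CPM (646.8 to 714.4) and 762.1 CPM (670.3 to 862.8) at day 7.

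Outside macrophages the receptors parted. C3ar1 was at 109.4 CPM (96.5 to 123.5) in cluster 3, at 27.7 CPM (19.8 to 37.7) in classical monocyte-like cells and at 6.1 CPM (2.2 to 13.3) in Ly6C-low cells. C5ar1 was at 98.8 CPM (80.1 to 120.5) in Ly6C-low and 69.2 CPM (56.3 to 84.1) in classical monocyte-like cells, and at 65.8 CPM (55.9 to 76.9) in cluster 3. Neutrophil-like cells of day 7 had C5ar1 at 275.9 CPM (208.4 to 358.2) and no C3ar1 UMI in 32 cells, which allows a share of cells with a UMI of up to 9.38%. Neither receptor had a UMI in the 69 steady-state fibroblast-like cells, which allows a share of cells with a UMI of up to 4.35%, nor in the 16 of day 7. At day 7 C5ar1 was at 148.8 CPM in Ly6C-low cells, a log2 ratio of 0.59 (0.23 to 0.96) that was 0.13 (-0.20 to 0.47) at resolution 1.5 and 0.28 (-0.08 to 0.65) with doublet calls kept, and C3ar1 at 14.4 CPM in classical monocyte-like cells, a ratio of -0.95 (-1.57 to -0.31). Host cells over donor cells among steady-state macrophage-like cells gave 0.72 (0.53 to 0.91) for C5ar1 and 0.23 (0.05 to 0.41) for C3ar1. At a mitochondrial limit of 5% the C3ar1 ratio was 0.05 (-0.16 to 0.26). Within cluster 7 C3ar1 was higher in donor cells (-0.35, -0.63 to -0.06).

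The antibody panel held CD88, the protein of C5ar1. By counts per cell it ranked the macrophage-like, neutrophil-like, monocyte-like and fibroblast-like classes much as the RNA did. The median count per cell was 43 in steady-state macrophage-like cells and 28 at day 7. It was 5 and 6 in Ly6C-low cells, 2 and 1 in classical monocyte-like cells, 18.5 in day 7 neutrophil-like cells and 0 and 1 in fibroblast-like cells. The 8 mast cell or basophil-like cells of day 7 did not follow this order. Their C5ar1 RNA overlapped that of macrophage-like cells, while their median CD88 count was 5. The median antibody total per cell was lower at day 7 (543 against 1050 over all cells), and per 10000 antibody counts the macrophage-like medians were 324 and 386. On that scale the day 7 fibroblast-like median was 60.8, above the 32.6 of classical monocyte-like cells, unlike the RNA. The fibroblast-like value rests on a median antibody total of 138.5. Within macrophage-like cells the ranking of the protein also depended on the scale. By counts per cell the steady-state medians were 62 in cluster 10, 60 in cluster 7, 58 in cluster 6, 33 in cluster 1 and 29 in cluster 2, which was lowest as in the RNA. Per 10000 antibody counts cluster 7 was highest (486), above cluster 6 (390), and cluster 1, with a median antibody total of 1590.5, was lowest (196). The RNA was highest in cluster 6, whose count per cell was close to that of cluster 7. Host and donor macrophage-like cells had steady-state medians of 49 and 32 counts per cell beside C5ar1 RNA at 512.6 and 311.8 CPM. Their median antibody totals were 1421.5 and 1001, and per 10000 the medians were 336 and 347.

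**Figure D5:**
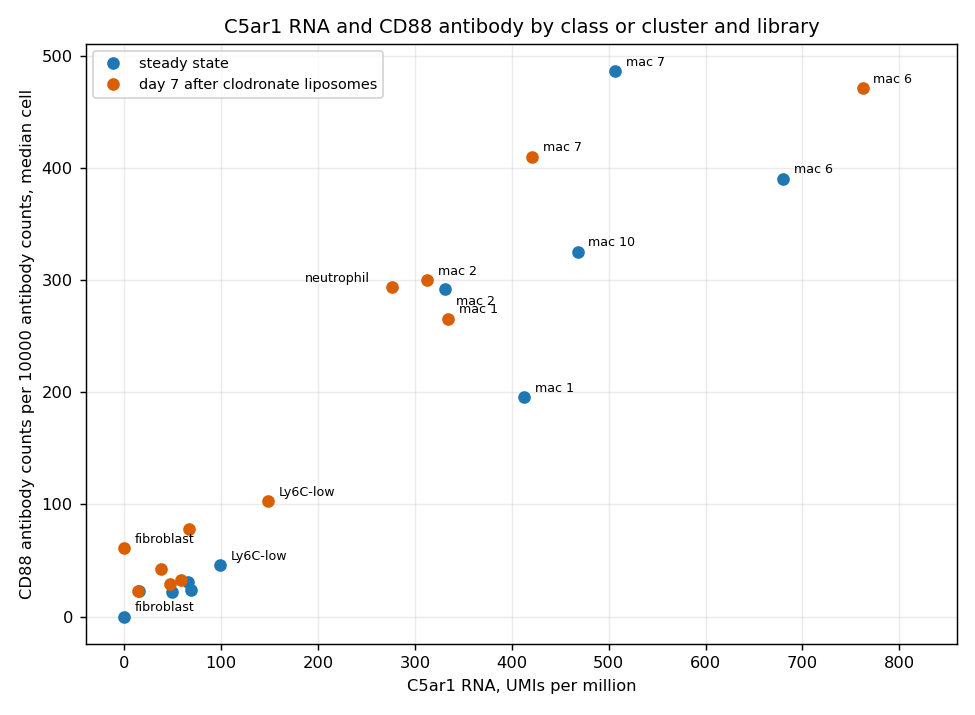
Median CD88 antibody count per 10000 antibody counts (vertical) against C5ar1 RNA in CPM (horizontal) by cell class and macrophage-like cluster in both libraries; mac and a number is a macrophage-like cluster, and groups of under 14 cells are not drawn. Macrophage-like clusters and neutrophil-like cells lie apart from the monocyte-like classes, and cluster 7 lies above cluster 6 at steady state though its RNA is lower.

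Of 32 other complement genes listed, 10 had no UMI in any class, among them Hc (C5), C9, Masp2 and Cfi, and 8 reached 100 CPM in a class of at least 20 cells. C1ra and C1s1, the proteases that C1q carries, were fibroblast genes: 310.0 and 293.3 CPM at steady state in fibroblast-like cells, against 1.3 CPM and 0 UMIs in macrophage-like cells. Cfb, the factor B gene, was at 205.6 CPM in fibroblast-like cells, and in Ly6C-low cells it had 1 UMI at steady state and 31 at day 7 (24.8 CPM). This was not particular to Ly6C-low cells: in cluster 0 Cfb was also at least 2-fold higher at day 7, against 3.98% of genes. At day 7 both monocyte-like classes had at least 2-fold more Cfb than macrophage-like cells, against 11.2% (Ly6C-low) and 11% (classical) of genes. Cd55, a regulator on cell surfaces, was at 373.5 CPM in fibroblast-like cells and 17.3 CPM in macrophage-like cells. Raw CD55 antibody counts did not show this difference. Their median was 0 in both classes at steady state and 1 in both at day 7. The day 7 antibody totals were unequal, with medians of 138.5 (fibroblast-like) and 702 (macrophage-like). Per 10000 antibody counts the day 7 CD55 medians were 77.6 (fibroblast-like) and 16.2 (macrophage-like), which is the direction of the RNA. The higher value rests on 16 cells with a median count of 1. At steady state both medians were 0 on that scale too, which gives no order. Fcnb, a ficolin gene, was at 1509 CPM in cluster 13 at day 7. Cr1l and C1qbp were present in most classes and highest in cluster 4, whose cells had a median of 1151 UMIs or fewer.

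For each member, the genes whose levels followed it most closely were taken over the 15 combinations of class and library with at least 20 cells, among 9631 genes, with Pearson's r of log2(CPM + 1). These points share 2 libraries and are given as a description. Macrophage-like cells enter as a single class per library, so the order among their clusters is not covered. At steady state Pf4 per 100 C1q UMIs was 6.0 in cluster 1, which had the most C1q, and 8.8 in cluster 6. It was 55.4, 52.8 and 64.5 in clusters 2, 7 and 10. C1qa was followed by Pf4 (r = 0.97), Fxyd2 (0.95) and Ltc4s (0.94), C1qc by Fxyd2 (0.94), Aqp1 (0.94) and Ltc4s (0.94), and C1qb by Ndfip2 (0.95), Tmem37 (0.95) and Mtss1 (0.94). C3 was followed by Svil (0.90), Irak3 (0.90) and Mgst1 (0.89), C4b by Slc22a17 (0.89), Lhfp (0.88) and Enpep (0.88), and Cfp by Mtmr14 (0.94), Ptrhd1 (0.93) and Cep63 (0.92). Some of these genes were low throughout. Their highest level in any combination was 22.7 CPM for Slc22a17, 21.2 for Enpep, 39.9 for Mtmr14 and 20.1 for Cep63. C3ar1 was followed by Trmt1, Rasgef1b and Pip5k1c (each 0.93), C5ar1 by Alox5 (0.90), Pik3r5 (0.89) and Ncf1 (0.89), and Serping1 by the fibroblast genes Myoc, Igfbp7 and Prrx1 (each 0.98).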

How the data were processed

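Each sample is 1 library of RNA and surface antibody barcodes (10x Genomics 3′, v3.1, per the labels' protocols). The deposited values are whole-number UMI counts per gene and antibody in each cell barcode. The submitters' processing notes name Cell Ranger 6.1.2, Seurat 4.4.0 and build mm10.

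Barcodes with at least 500 UMIs, 200 genes and at most 10% mitochondrial UMIs that Scrublet did not call doublets (6 and 10 removed) were kept, leaving 17073042 UMIs at steady state and 10826373 at day 7. Both libraries were clustered together (scanpy 1.11.5, 2000 variable genes without complement genes, 30 components, 15 neighbours, Leiden resolution 1). Clusters were named from marker lists. Parts of that procedure were fixed once the clusters had been inspected, so classes are rebuilt and not the authors' own. Host and donor were called from the ratio of the CD45 antibodies by a mixture of 2 components fitted to both libraries together. A probability of at least 0.95 was required. Median CD45.1 counts differed between the libraries, at 81 and 13 in Ly6C-low monocyte-like cells. Counts were summed per class and given as CPM. Genes at 20 CPM or more in either group were compared and 2-fold was the mark. A count of 0 was taken as 3 counts for bounds. Scripts were tested on simulated data.

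The members and lists were chosen with earlier results of these data known. Other complement genes were named at 100 CPM or more in a class of at least 20 cells (a gene that met this is not reported here), and like genes as the 3 with the highest correlation, leaving out ribosomal, mitochondrial, Gm, Rik and complement genes. Genes in single sentences on clusters 0, 3, 12 and 13 are their leading genes. Promoter windows are from RefSeq (GRCm38.p6), with an entry for 6 of the 9 genes. Alternatives were the clustering resolution, mitochondrial limit, doublets, a marker gate per cell, equal weight per cell, complement genes in the clustering, a fixed CD45 threshold and, added after seeing the data, a depth minimum of 2000 UMIs and leaving out cells with 20 or more counts of both CD45 antibodies.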

Additional observations from a re-analysis of the deposited data

How the results depend on the processing

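The 5 leading comparisons kept their sign under all 46 alternative values, and 30 of these stayed within the counting interval. The log2 ratio of day 7 over steady state for C1q in macrophage-like cells was -0.81 at resolution 0.5, -0.68 at a mitochondrial limit of 5%, -0.65 with a marker gate per cell and -0.72 with equal weight per cell. C1q in macrophage-like over Ly6C-low monocyte-like cells was 6.28 at resolution 1.5, 6.53 with the marker gate and 6.49 with equal weight. C1q in host over donor cells was 0.58 at resolution 0.5, 0.21 at the 5% limit, 0.56 with the marker gate, 0.64 with equal weight, 0.63 with a fixed CD45 threshold and 0.59 without cells carrying both CD45 antibodies. Cfp in Ly6C-low monocyte-like over macrophage-like cells was -0.92 (-1.45 to -0.44) as reported, and -0.37 at resolution 1.5 (-0.83 to 0.06), -0.40 with doublet calls kept and -0.30 with the marker gate (-0.68 to 0.07), so neither its size nor its direction is settled. C3 in fibroblast-like over macrophage-like cells ranged from 9.76 to 10.34. The cause of these shifts was not tested. Of 223 values for 24 other results, 177 stayed within the interval and 7 changed sign. In 6 of these the reported interval included 0 (C4b and C5ar1 in macrophage-like and Serping1 in fibroblast-like cells). The other was Cfp in Ly6C-low monocyte-like cells between libraries, from 1.61 to -0.43 with the marker gate. For the same cells C3 ranged from 1.32 to 2.06 and C5ar1 from 0.13 to 0.72. C1qb in host over donor cells was 0.01 at the 5% limit. C4b in host over donor cells ranged from 0.80 to 3.70. No paired analysis was possible because each group is 1 library, which also means that no value here measures the spread between animals.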

Other observations

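Barcodes left out for a high mitochondrial share also carried C1q. The 271 such barcodes of the steady-state library (median 1006 UMIs) had 3773 CPM of the C1q chains (3588 to 3965), and the 63 of the day 7 library (median 975 UMIs) had 573.3 CPM (414.9 to 772.3). In the same barcodes C3 was at 29.0 CPM and 106.7 CPM, and C4b at 89.3 CPM and 0 UMIs. In the steady-state library 31 of the kept cells carried 20 or more counts of both CD45 antibodies, and none did at day 7.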
